A study of Mus musculus with 6 samples.

Results

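Neurofilaments and the neuronal microtubule cytoskeleton are represented here by 10 genes, the subunit genes Nefl, Nefm, Nefh and Ina, the microtubule-associated protein genes Mapt, Map1b and Map2, the tubulin gene Tubb3, and the neuron-enriched genes Uchl1 and Dpysl2. They were read from the table by symbol, and all 10 were found among its 56859 genes. The set was drawn up with earlier results of these data known. RNA was sequenced from the spinal cord of wild-type (WT) mice at 6 weeks after a contusion, a blunt compression injury, at thoracic level T10. Mice of the injury + AZ876 group (n = 3) had been given AZ876, which activates liver X receptors (LXR), into the peritoneum once daily for 1 week at 5 mg/kg. Mice of the injury group (n = 3) had the same contusion without AZ876, and the labels' protocols state that controls were injected with the solvent. Every sample carries the same batch label and none came from uninjured cord, so levels cannot be set against those of intact tissue. The labels give neither the age nor the strain of the mice, nor whether the replicates of a group were separate animals, so the p-values speak only of the spread among the 6 samples, some of which may be technical.

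Neurofilaments are the intermediate filaments of axons. They are built from a light, a medium and a heavy subunit together with alpha-internexin, and they set the calibre of large myelinated axons. Microtubules run alongside them as tracks for axonal transport, stabilised by tau in axons and by MAP2 in dendrites. Messenger RNA for these proteins is made and kept mainly in neuronal cell bodies, so tissue at an injury site that holds axons but few cell bodies holds little of it. In whole tissue, fewer neurons, less RNA per neuron and more RNA from other cells cannot be told apart.

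At 6 weeks, all 10 genes had a lower mean level in the injury + AZ876 group, and for 7 of them every injury + AZ876 library was below every injury library. The 4 neurofilament genes, Tubb3 and Uchl1 had the larger differences, with means in the injury + AZ876 group at 49.7% to 59.8% of those in the injury group. Map1b and Map2 followed at 66.7% and 73.7%, and Dpysl2 and Mapt had the smallest differences at 80.0% and 82.0%. None of the 10 passed the test across all genes. Their p-values in the quasi-likelihood test of edgeR, adjusted by the Benjamini-Hochberg method, ran from 0.330 to 0.434. The same test called 0% of the 17599 genes tested at an adjusted p under 0.05, as did limma-voom, while DESeq2 called 51 genes lower (0.29%) and 126 higher (0.716%), with Nefm among the lower ones.

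A total of 8 of the 10 genes were lower at an unadjusted p under 0.05 in edgeR, where 6.74% of all genes tested were lower and 7.98% higher at that p. Of all genes tested, 8.64% had every injury + AZ876 library below every injury library, as 7 of the 10 did, and 10.2% had every injury + AZ876 library above. Because the set was not chosen independently of these data, the counts describe the 10 genes and are no test of them. The median log2 fold change, injury + AZ876 over injury, was -0.75 for the 10 genes and 0.00 for all genes tested, of which 49.55% were lower. The counts depended on single libraries. All 10 genes stayed lower when any 1 library was left out, but the number at an unadjusted p under 0.05 was 5 without injury + AZ876 replicate 3 or without injury replicate 2, where 2.29% and 3.81% of all genes were, and 9 without injury + AZ876 replicate 1, where 13.8% of all genes were. It was 6 without injury + AZ876 replicate 2 or without injury replicate 1, beside 2.26% and 2.79% of all genes, and 8 without injury replicate 3, beside 9.98%. At an adjusted p under 0.05, edgeR called none of the 10 with no low-count filter, where 0.0185% of all genes were called higher, or with the replicate number as a block, where 0.0114% were. Without injury + AZ876 replicate 1 it called 1.64% of all genes lower and 0.351% higher, and Ina was the member called.

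The libraries held 14067649 to 20211175 counts, and the 10 genes had between 924 and 31692 counts each in a library, so counting error was small beside the spread between samples. Together they took 0.450%, 0.369% and 0.234% of the counts of injury + AZ876 replicates 1, 2 and 3, against 0.622%, 0.583% and 0.518% in injury replicates 1, 2 and 3. Injury + AZ876 replicate 3 held the smallest share and injury replicate 1 the largest. Mitochondrial genes took 3.77% to 4.58% of the counts in the injury + AZ876 libraries and 3.80% to 4.95% in the injury libraries, ranges that overlap. On the first principal component of all genes, the scores were -7.17, 44.2 and 49.5 for injury + AZ876 replicates 1, 2 and 3, against -40.6, -52.3 and 6.31 for injury replicates 1, 2 and 3. Injury + AZ876 replicate 1 and injury replicate 3 thus lay apart from the rest of their groups, and the groups overlapped on this component. These libraries were also the most alike of all pairs in their counts, with a chi-square per degree of freedom of 13.1.

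**Figure D1:**
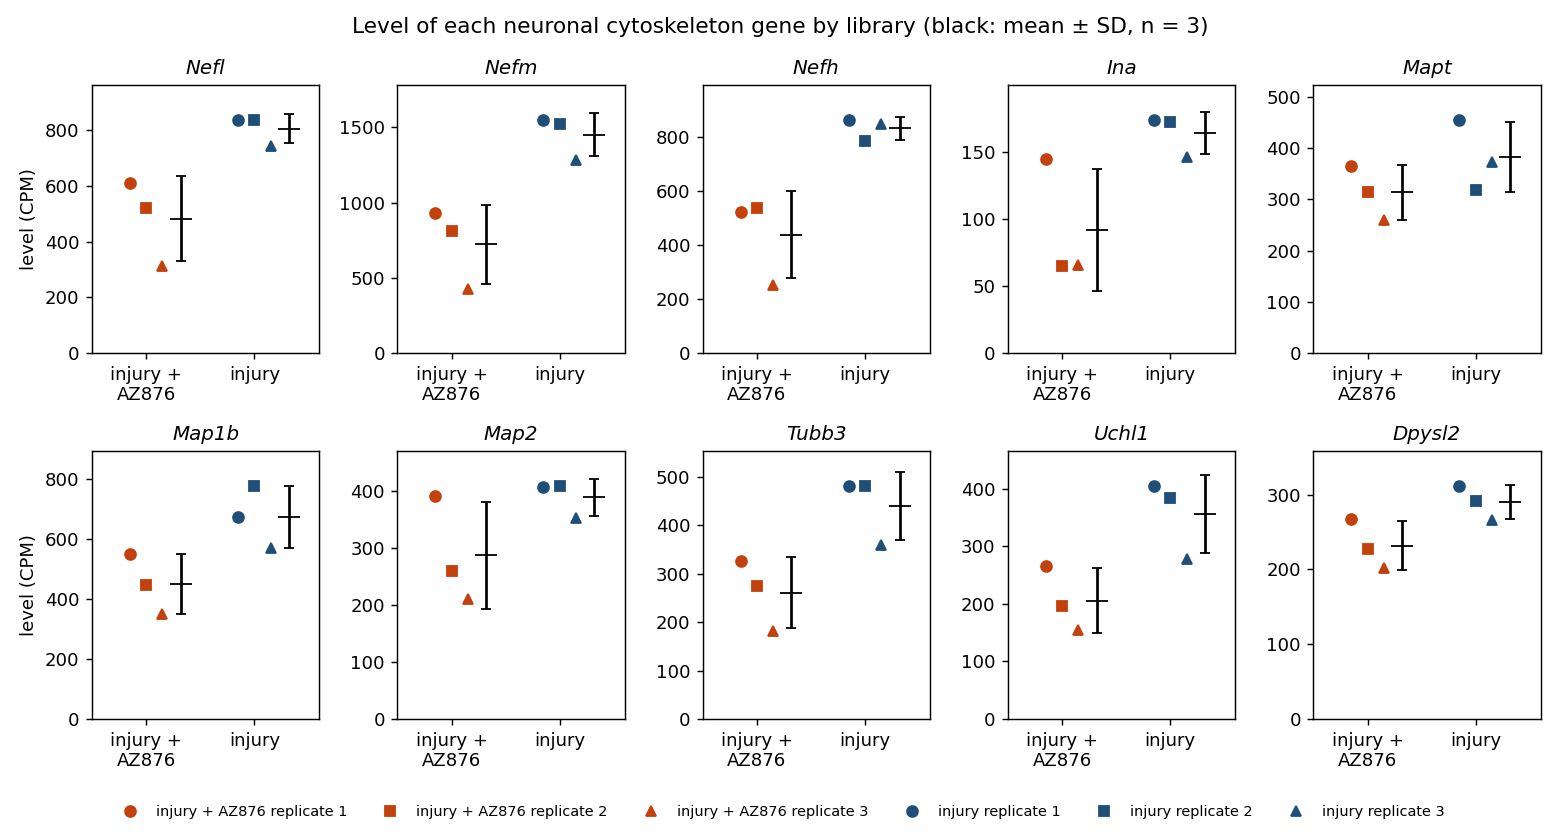
Level of each of the 10 genes in every library, in CPM (counts scaled to library size) on a linear axis from 0, with injury + AZ876 left of injury; coloured symbols are libraries and black bars are the mean ± SD (n = 3). The 2 groups do not overlap for Nefl, Nefm, Nefh, Ina, Map1b, Tubb3 and Uchl1, and overlap for Mapt, Map2 and Dpysl2.

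The core subunit of the neurofilament is the light chain encoded by Nefl, without which the other subunits do not form normal filaments in axons. Nefl has the identifier ENSMUSG00000022055 and lies on the plus strand of chromosome 14, at 68321312 to 68326544. The genome build behind these positions is not given in the sources used here, and all 10 genes are annotated as protein-coding. In CPM (counts scaled to library size), Nefl stood at 611, 520.4 and 313 in injury + AZ876 replicates 1, 2 and 3, against 836, 834 and 743 in injury replicates 1, 2 and 3. The highest injury + AZ876 library was thus below the lowest injury library. Its log2 fold change was -0.74 ± 0.23 (SE, n = 3 each; edgeR adjusted p = 0.330). A two-sided exact permutation test of log2 CPM gave p = 0.1, the smallest p that 3 against 3 samples allow.

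Nefm encodes the medium chain, which carries one of the long tails that project from the filament. The gene (ENSMUSG00000022054) lies on the minus strand of chromosome 14, at 68320039 to 68362295. Nefm was found at 933, 808 and 425 CPM in injury + AZ876 replicates 1, 2 and 3, against 1550.3, 1521 and 1286 CPM in injury replicates 1, 2 and 3. This was the largest difference among the 10 genes, a log2 fold change of -1.01 ± 0.28 (SE; edgeR adjusted p = 0.330). DESeq2 gave Nefm an adjusted p of 0.0427, past the threshold, and 0.29% of all genes tested were called lower by DESeq2. Left-out libraries moved the edgeR log2 fold change of Nefm between -1.24, without injury + AZ876 replicate 1, and -0.74, without injury + AZ876 replicate 3.

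The listed extent of Nefm contains the whole of Nefl on the opposite strand, 5233 bases. In the GENCODE M21 transcripts, bases 1300 to 2407 of the longest Nefm transcript are the reverse complement of bases 1 to 1108 of the Nefl transcript, so that 30.8% of the 100-base windows of Nefl and 28.2% of those of Nefm lie in both genes. The strand setting of the authors' counting is not given in the sources used here. Without strand, reads from that stretch cannot be assigned to either gene, and the levels of Nefl and Nefm relative to each other are uncertain to that extent. Ina shared 11.4% of its windows with Nt5c2 on the opposite strand, which had 956 to 1785 counts in a library beside 924 to 3548 for Ina, so the level of Ina is uncertain in the same way. Uchl1 shared 12.3% with Uchl1os, which had 0 to 3 counts in a library. Nefh, Mapt, Map1b, Map2, Tubb3 and Dpysl2 shared 0 windows with transcripts of other genes.

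Nefh encodes the heavy chain, whose tail is heavily phosphorylated in mature myelinated axons. Its gene (ENSMUSG00000020396) lies on the minus strand of chromosome 11, at 4888754 to 4898064. Nefh had 523, 537 and 251 CPM in injury + AZ876 replicates 1, 2 and 3, against 862, 783 and 845 CPM in injury replicates 1, 2 and 3. The groups did not overlap, and the injury libraries lay close together, with a coefficient of variation of 4.99%, while that of the injury + AZ876 libraries was 36.8%. The log2 fold change of Nefh was -0.93 ± 0.27 (SE; edgeR adjusted p = 0.330). Injury + AZ876 replicate 3 was the lowest library for Nefl, Nefm and Nefh, as it was for every other gene of the set except Ina.

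Ina encodes alpha-internexin, the subunit that neurons make early in development and keep in central axons. Ina (ENSMUSG00000034336) lies on the plus strand of chromosome 19, at 47003137 to 47013766. Ina had the lowest level in CPM of the 10 genes, at 144, 64.9 and 65.4 CPM in injury + AZ876 replicates 1, 2 and 3, against 174, 172 and 146 CPM in injury replicates 1, 2 and 3. Injury + AZ876 replicate 1 was barely below injury replicate 3, and the other injury + AZ876 libraries stood far lower. The log2 fold change of Ina was -0.84 ± 0.31 (SE; edgeR adjusted p = 0.330). Without injury + AZ876 replicate 1 it was -1.33 with an edgeR adjusted p of 0.0377, past the threshold, where 1.64% of all genes were called lower, and over the 6 fits that left out 1 library each the adjusted p ran from 0.0377 to 0.745.

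Tubb3 encodes class III beta-tubulin, an isotype largely restricted to neurons. Tubb3 (ENSMUSG00000062380) lies on the plus strand of chromosome 8, at 124138163 to 124148754. It was found at 326, 274 and 182 CPM in injury + AZ876 replicates 1, 2 and 3, against 481, 481 and 359 CPM in injury replicates 1, 2 and 3. The groups did not overlap, and the log2 fold change was -0.76 ± 0.23 (SE; edgeR adjusted p = 0.330). Uchl1 encodes a ubiquitin hydrolase that is abundant in neurons and is widely used under the name PGP9.5 to stain them. The identifier of Uchl1 is ENSMUSG00000029223, on the plus strand of chromosome 5 at 66833434 to 66844577. Uchl1 had 266, 197 and 155 CPM in injury + AZ876 replicates 1, 2 and 3, against 405, 385 and 278 CPM in injury replicates 1, 2 and 3. Here too the groups did not overlap, although injury + AZ876 replicate 1 came close to injury replicate 3, and the log2 fold change was -0.79 ± 0.23 (SE; edgeR adjusted p = 0.330).

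Promoter sequences of Ina, Map1b, Map2, Tubb3 and Uchl1 were found in the RefSeq table for GRCm38.p6, from 250 bases before to 50 bases after the gene start, and those of Tubb3 and Uchl1, which had nearly the same difference, are shown with that of Map2, whose groups overlapped. Capitals mark matches, on either strand, to TATAA, the core of the TATA box, and to GGGCGG, the GC box. The Tubb3 window is chr8:123411303-123411602 on the plus strand, that of Uchl1 is chr5:66675871-66676170 on the plus strand, and that of Map2 is chr1:66175079-66175378 on the plus strand, all in GRCm38.p6.
Tubb3: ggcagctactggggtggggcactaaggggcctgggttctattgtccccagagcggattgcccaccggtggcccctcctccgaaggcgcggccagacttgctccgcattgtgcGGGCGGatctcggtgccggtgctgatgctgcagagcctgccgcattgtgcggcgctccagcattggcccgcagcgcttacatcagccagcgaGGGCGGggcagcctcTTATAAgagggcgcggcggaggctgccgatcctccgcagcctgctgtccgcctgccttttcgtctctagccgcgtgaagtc
Uchl1: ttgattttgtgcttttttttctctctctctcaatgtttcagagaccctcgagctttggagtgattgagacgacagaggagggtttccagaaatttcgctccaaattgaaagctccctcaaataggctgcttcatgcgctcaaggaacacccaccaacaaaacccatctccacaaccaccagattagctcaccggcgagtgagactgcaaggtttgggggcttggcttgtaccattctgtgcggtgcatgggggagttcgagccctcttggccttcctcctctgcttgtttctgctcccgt
Map2: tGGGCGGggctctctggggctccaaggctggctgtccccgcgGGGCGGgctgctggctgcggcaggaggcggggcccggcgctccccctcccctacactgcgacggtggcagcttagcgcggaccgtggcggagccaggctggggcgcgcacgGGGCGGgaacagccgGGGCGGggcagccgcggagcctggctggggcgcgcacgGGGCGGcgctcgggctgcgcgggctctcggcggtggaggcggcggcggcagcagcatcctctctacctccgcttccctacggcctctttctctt

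The Tubb3 window held 2 GC boxes and TATAA on each strand, in letters that overlap. The Map2 window held 5 GC boxes and no TATAA, and the Uchl1 window held neither. Of the 32851 promoter windows in the RefSeq table, 24.9% held TATAA and 35.7% held GGGCGG on either strand. The direct repeat that LXR binds with its partner RXR, searched as 2 exact copies of AGGTCA on the same strand with any 4 bases between them, was in none of the 5 windows and in 5 of the 32851. TGACGTCA, the cyclic AMP response element, was likewise in none of the 5 and in 1.79% of all. G and C made up 67.3% of the Tubb3 window, 50.7% of that of Uchl1 and 77.7% of that of Map2, beside a median of 52.7% over all windows.

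Mapt encodes tau, which binds and stabilises axonal microtubules and is made by oligodendrocytes as well as neurons. Mapt (ENSMUSG00000018411) lies on the plus strand of chromosome 11, at 104122216 to 104222916. Mapt stood at 366, 315 and 259.7 CPM in injury + AZ876 replicates 1, 2 and 3, against 455, 318 and 374 CPM in injury replicates 1, 2 and 3. The groups overlapped, since injury replicate 2 was below injury + AZ876 replicate 1. The log2 fold change of Mapt was -0.29 ± 0.18 (SE; edgeR adjusted p = 0.434), and it was -0.14 without injury replicate 1 and -0.17 without injury + AZ876 replicate 3.

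Map1b encodes a large microtubule-associated protein of growing and sensory axons, and Map2 the main one of dendrites. Map1b (ENSMUSG00000052727), on the minus strand of chromosome 13 at 99557954 to 99653048, had 549.8, 446 and 351 CPM in injury + AZ876 replicates 1, 2 and 3, against 673, 776 and 569 CPM in injury replicates 1, 2 and 3. Its groups did not overlap, and the log2 fold change was -0.58 ± 0.19 (SE; edgeR adjusted p = 0.330). Map2 (ENSMUSG00000015222), on the plus strand of chromosome 1 at 66214432 to 66481742, had 389.6, 259.7 and 209.65 CPM in injury + AZ876 replicates 1, 2 and 3, against 406.5, 408 and 351 CPM in injury replicates 1, 2 and 3. Injury + AZ876 replicate 1 was above injury replicate 3, so the groups of Map2 overlapped. The log2 fold change of Map2 was -0.44 ± 0.22 (SE; edgeR adjusted p = 0.367), and it was -0.73 without injury + AZ876 replicate 1 and -0.26 without injury + AZ876 replicate 3.

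Dpysl2 encodes CRMP2, which binds tubulin and carries the growth cone response to semaphorins, and which oligodendrocytes also make. Dpysl2 (ENSMUSG00000022048) lies on the minus strand of chromosome 14, at 67040313 to 67106137. Its levels were 266.8, 228 and 201 CPM in injury + AZ876 replicates 1, 2 and 3, against 312, 292 and 266.4 CPM in injury replicates 1, 2 and 3. Injury + AZ876 replicate 1 and injury replicate 3 were nearly equal and the groups overlapped by that margin alone. The log2 fold change of Dpysl2 was -0.32 ± 0.14 (SE; edgeR adjusted p = 0.336).

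**Figure D2:**
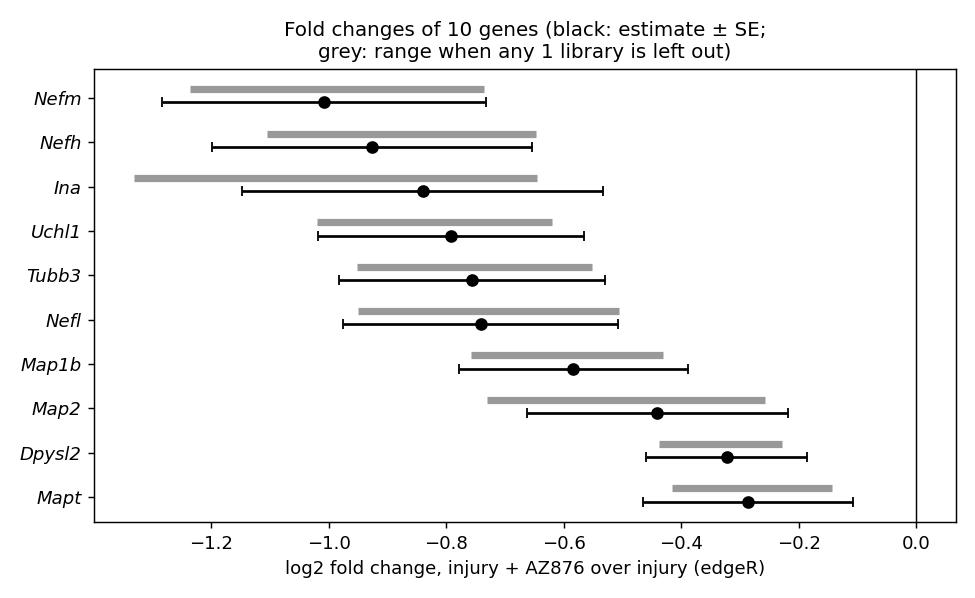
Log2 fold change of each gene, injury + AZ876 over injury, by edgeR; black points and bars are the estimate ± SE and grey bars the range when any 1 of the 6 libraries is left out. All estimates and all ranges lie below 0, from -1.01 for Nefm to -0.29 for Mapt.

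Levels of different genes were compared per kilobase of exon length in GENCODE M21, as CPM per kb. In the injury group the order was Nefm at 251 ± 25.0, Nefl at 238 ± 15.7, Tubb3 at 236 ± 37.6, Uchl1 at 218 ± 41.6 and Nefh at 208 ± 10.4 CPM per kb (SD, n = 3), 5 genes whose neighbours differed by less than their SD. Dpysl2 followed at 64.2 ± 5.03, then Mapt at 50.8 ± 9.13, Ina at 50.5 ± 4.78, Map1b at 42.5 ± 6.53 and Map2 at 23.6 ± 1.97 CPM per kb. The step below Nefh was seen in all 6 libraries, where Nefh exceeded Dpysl2. With this length, Tubb3 also exceeded Uchl1 in all 6 libraries, as Dpysl2 did Mapt and Map1b did Map2. Per kilobase of the longest transcript, the means of these pairs had the reverse order in both groups. In the injury + AZ876 group the 5 highest genes were Nefl at 142 ± 45.2, Tubb3 at 139.5 ± 39.0, Uchl1 at 126 ± 34.3, Nefm at 125 ± 45.8 and Nefh at 109 ± 40.3 CPM per kb. Nefm was above Nefl in 3 of 3 injury libraries and in 0 of 3 injury + AZ876 libraries. That order rests on the length used: per kilobase of the longest transcript, Nefm averaged 196 ± 71.9 in the injury + AZ876 group and 395 ± 39.3 in the injury group, the highest of the 10 in both, and Uchl1, at 175 ± 47.6 and 302 ± 57.7, came next to it.

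Ratios of 2 genes within a library do not depend on how libraries are scaled, and 8 ratios were compared to ask whether the genes differed from each other in how far they were lower. The ratio of Nefm to Nefl was 1.53, 1.55 and 1.36 in injury + AZ876 replicates 1, 2 and 3, against 1.85, 1.82 and 1.73 in injury replicates 1, 2 and 3. Every injury + AZ876 library was below every injury library, with a difference in mean log2 ratio of -0.29. The ratio of Mapt to Nefl ran the other way, at 0.599, 0.605 and 0.830 in injury + AZ876 replicates 1, 2 and 3, against 0.544, 0.382 and 0.503 in injury replicates 1, 2 and 3, a difference of 0.51. Dpysl2 to Nefl was likewise higher in each injury + AZ876 library, at 0.437, 0.438 and 0.644, against 0.373, 0.350 and 0.359 in injury replicates 1, 2 and 3, a difference of 0.47 that was 0.28 without injury + AZ876 replicate 3. Each of these 3 ratios had a two-sided exact permutation p of 0.1, the smallest that 3 against 3 libraries allow, and an adjusted p of 0.267 over the 8 ratios. All 3 share Nefl, so they are not separate observations. Counts of Nefl and Nefm are also uncertain where the 2 genes overlap.

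The other 5 ratios overlapped between groups. Tubb3 to Nefl had a mean log2 ratio of -0.87 ± 0.08 in the injury + AZ876 group and -0.88 ± 0.15 in the injury group (SD, n = 3 each; exact permutation p = 0.8), and Uchl1 to Nefl had -1.21 ± 0.19 and -1.19 ± 0.20 (exact permutation p = 1.0). Ina to Nefl was at 0.125 in injury + AZ876 replicate 2, and between 0.196 and 0.236 in the other 5 libraries (exact permutation p = 1.0). The differences in mean log2 ratio were -0.21 for Nefh to Nefl (exact permutation p = 0.3) and -0.11 for Map1b to Map2 (exact permutation p = 0.6). These 5 ratios had adjusted p-values from 0.600 to 1.0.

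**Figure D3:**
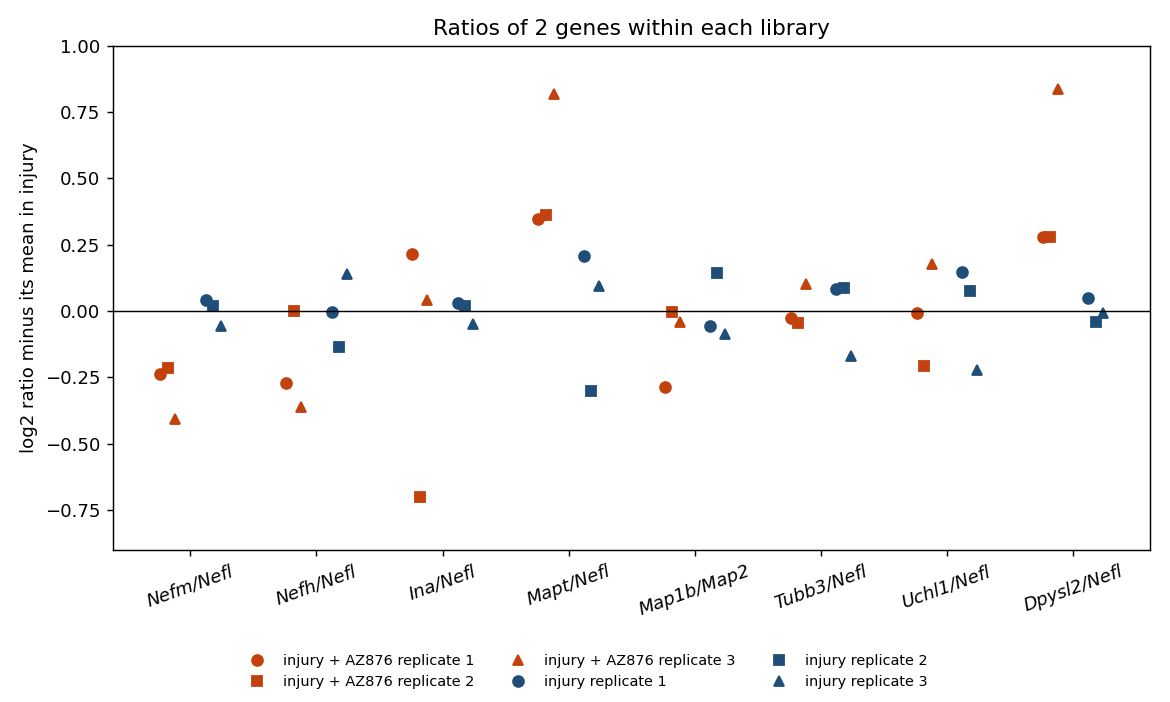
Log2 ratio of 2 genes in each library, shown as the difference from its mean in the injury group, with injury + AZ876 (orange) left of injury (blue) for each ratio. The libraries of the groups separate for Nefm/Nefl, Mapt/Nefl and Dpysl2/Nefl and overlap for the other 5 ratios.

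The other genes of the neuronal cytoskeleton were read from 9 lists, in which all genes were tested and 0 passed the edgeR adjusted threshold. Beside the counts of each list stand the shares over all genes tested. Of these, 49.55% were lower in the injury + AZ876 group. At an unadjusted p under 0.05 in edgeR, 6.74% were lower and 7.98% higher. For 8.64%, every injury + AZ876 library was below every injury library. Of 18 axonal transport motor genes 16 were lower in the injury + AZ876 group, 11 of them at an unadjusted p under 0.05 and 11 with every injury + AZ876 library below every injury library, with a median log2 fold change of -0.45. Klc2, a kinesin light chain gene, averaged 138 ± 42.3 CPM in the injury + AZ876 group and 247 ± 29.4 CPM in the injury group (SD, n = 3 each), and Kif5c, a neuronal kinesin heavy chain gene, 196 ± 74.6 and 376 ± 54.8 CPM. Kif5a, the kinesin heavy chain gene whose product carries neurofilaments along axons, was chosen after its values were seen and had a log2 fold change of -1.13 ± 0.33 (SE), the most negative of that list.

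Among 29 genes of microtubule-associated and microtubule-destabilising proteins, 26 were lower, 12 of them at an unadjusted p under 0.05, with a median of -0.35. Map1a, the relative of Map1b that adult neurons favour, averaged 508 ± 136 CPM in the injury + AZ876 group and 866 ± 146 CPM in the injury group, and Map7, which recruits kinesin to microtubules, 101 ± 3.73 and 132 ± 15.5 CPM. Of 12 tubulin genes 10 were lower, 5 of them at an unadjusted p under 0.05, with a median of -0.27. Tubb4a, an isotype that oligodendrocytes make in quantity, averaged 691 ± 102 CPM in the injury + AZ876 group and 1068 ± 132 CPM in the injury group, and Tuba4a 150.3 ± 34.3 and 232 ± 23.5 CPM. The 2 tubulin genes with higher means in the injury + AZ876 group were Tuba1c, at a log2 fold change of 0.51, and Tubb6, at 0.46. Both had an unadjusted p under 0.05 in edgeR, as did 7.98% of all genes tested in that direction. The groups overlapped for both, and they are named after their values were seen. Alpha-tubulin genes are close copies of each other, so their counts are uncertain.

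Tau and neurofilament kinase and phosphatase genes had 14 of 17 members lower, 4 of them at an unadjusted p under 0.05, with a median of -0.25. Ttbk1, a neuronal tau kinase gene, averaged 47.1 ± 15.7 CPM in the injury + AZ876 group and 88.2 ± 16.6 CPM in the injury group, and Cdk5, which phosphorylates tau and neurofilament tails, 83.0 ± 5.22 and 105 ± 8.80 CPM. Of 10 tubulin modifying enzyme genes 9 were lower, 2 of them at an unadjusted p under 0.05, with a median of -0.34. Vash1, a gene of tubulin detyrosination, averaged 13.3 ± 0.730 and 20.9 ± 3.22 CPM in the injury + AZ876 and injury groups, and Ttll7, a tubulin polyglutamylase gene, 110.5 ± 26.4 and 149 ± 6.35 CPM.

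Spectrin, ankyrin and actin genes of the axon had 10 of 12 members lower, 4 of them at an unadjusted p under 0.05, with a median of -0.25. Sptbn4, the spectrin of nodes and initial segments, averaged 51.6 ± 21.5 CPM in the injury + AZ876 group and 111 ± 36.0 CPM in the injury group, and Ank3, its ankyrin partner, 129.7 ± 35.4 and 198 ± 15.6 CPM. Marcks, which encodes an actin-binding substrate of protein kinase C, was the 1 gene of this list with a higher mean at an unadjusted p under 0.05. In edgeR, 7.98% of all genes tested were higher at that p. Marcks had a log2 fold change of 0.55 and groups that overlapped, and is named after its values were seen. Other intermediate filament and linker genes had 5 of 7 members lower, with a median of -0.36. Dst, which links filaments to microtubules, averaged 283 ± 20.0 CPM in the injury + AZ876 group and 363 ± 25.5 CPM in the injury group, and Trim2, a ubiquitin ligase that acts on the neurofilament light chain, 134 ± 35.7 and 201 ± 33.7 CPM.

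Of the 4 relatives of Dpysl2 tested, 3 were lower, with a median of -0.55. Dpysl5 averaged 28.2 ± 5.18 CPM in the injury + AZ876 group and 40.8 ± 7.49 CPM in the injury group, and Dpysl4 21.6 ± 7.41 and 31.9 ± 8.45 CPM. Dpysl3, named after its values were seen, had a higher level in every injury + AZ876 library, as did 10.2% of all genes tested. It averaged 113 ± 3.85 CPM in the injury + AZ876 group and 93.9 ± 15.1 CPM in the injury group, with a log2 fold change of 0.27 (edgeR adjusted p = 0.367). Deubiquitinase and proteasome partner genes, a list around Uchl1, had 8 of 8 members lower, 0 of them at an unadjusted p under 0.05, with a median of -0.20. Uchl5 averaged 34.7 ± 4.92 CPM in the injury + AZ876 group and 46.6 ± 11.2 CPM in the injury group. The list medians, between -0.55 and -0.20, were each nearer to 0 than the median of -0.75 of the 10 genes.

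**Figure D4:**
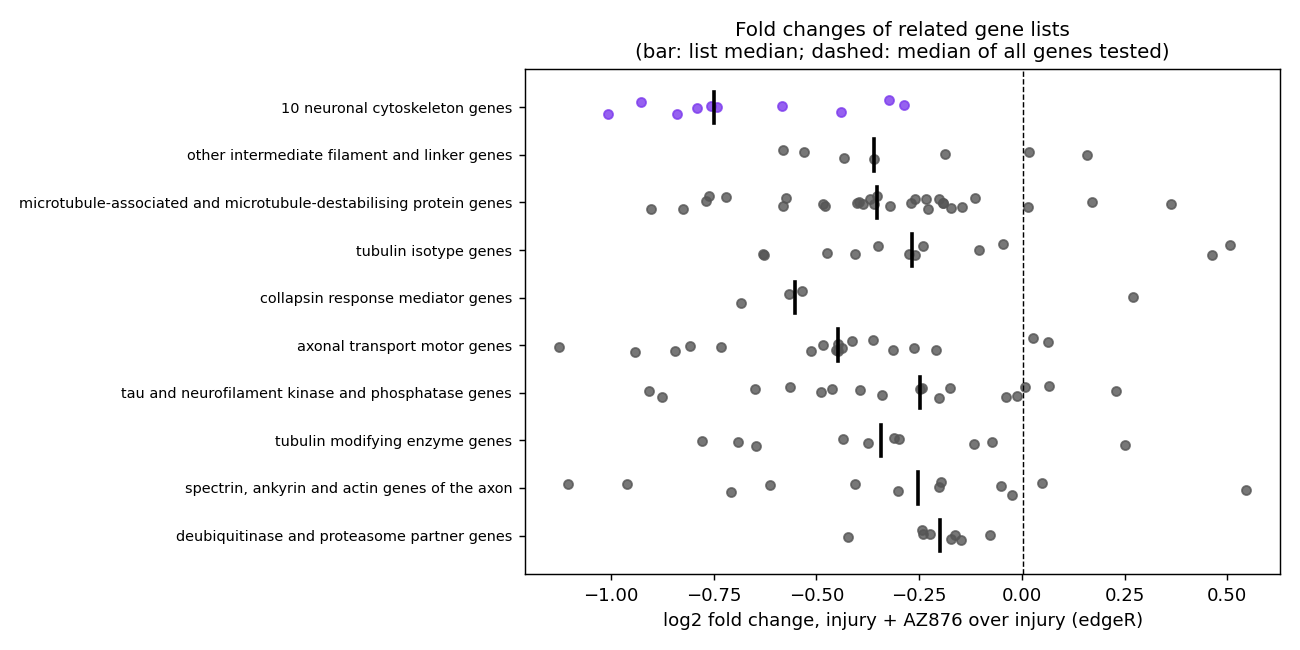
Log2 fold change, injury + AZ876 over injury by edgeR, of each gene of the 9 related lists and of the 10 genes; short bars are medians and the dashed line is the median of all genes tested, 0.00. Most points lie left of the dashed line in every list, and the median is -0.75 for the 10 genes and between -0.55 and -0.20 for the lists.

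Pan-neuron markers, genes that most neurons express whatever their type, gave a measure of neuronal RNA apart from the cytoskeleton. All 14 were tested and had counts, and 14 of 14 were lower in the injury + AZ876 group, with a median log2 fold change of -0.66, 5 of them at an unadjusted p under 0.05. Over all genes tested, 49.55% were lower, and 6.74% were lower at that p in edgeR. Their summed level was 4977, 2528 and 2155 CPM in injury + AZ876 replicates 1, 2 and 3, against 6042, 5939 and 4479 CPM in injury replicates 1, 2 and 3. Injury + AZ876 replicate 1 was above injury replicate 3, so the groups overlapped here, while they did not for the neurofilament genes. Of the 14 markers, Thy1 and Elavl3 had every injury + AZ876 library below every injury library, as did 8.64% of all genes tested.

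Divided by that sum, all 10 genes overlapped between the groups. Nefl made up 0.123, 0.206 and 0.145 of the pan-neuron sum in injury + AZ876 replicates 1, 2 and 3, against 0.138, 0.141 and 0.166 in injury replicates 1, 2 and 3. Injury + AZ876 replicate 1 was the lowest library of the 6 for this share and injury + AZ876 replicate 2 the highest. For Dpysl2 the share was 0.0536, 0.0900 and 0.0935 in injury + AZ876 replicates 1, 2 and 3, against 0.0516, 0.0492 and 0.0595 in injury replicates 1, 2 and 3. The mean log2 share differed between the groups by 0.57 for Mapt, 0.53 for Dpysl2, 0.37 for Map2 and 0.26 for Map1b, and by -0.22 to 0.07 for the other 6 genes. Motor neuron markers, which include cells rich in neurofilaments, were lower for 9 of 9 genes with a median of -0.53, and summed to 136, 183 and 72.9 CPM in injury + AZ876 replicates 1, 2 and 3, against 189, 192 and 172.5 CPM in injury replicates 1, 2 and 3.

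Markers of other cells differed in level between the groups, and 0 genes of any cell type list passed the edgeR adjusted threshold. Of all genes tested, 49.55% were lower in the injury + AZ876 group. Schwann cell markers, of which 9 of 10 were tested, had 9 of 9 higher with a median of 0.67 and summed to 2872 to 3298 CPM in the injury + AZ876 libraries and 1211 to 2366 CPM in the injury libraries. Fibroblast and meninges markers had 10 of 10 higher with a median of 0.92, with sums of 5261 to 7004 and 2627 to 4474 CPM, and T cell markers 8 of 8 higher with a median of 1.68, with sums of 20.5 to 37.9 and 6.26 to 13.8 CPM. Macrophage and microglia markers had 10 of 10 higher with a median of 0.60, and their sums overlapped, at 2269 to 5324 CPM in the injury + AZ876 libraries and 1580.0 to 2908 CPM in the injury libraries. Oligodendrocyte markers had 9 of 10 lower with a median of -0.20 and sums of 21630 to 26750 CPM in the injury + AZ876 libraries and 27610 to 29940 CPM in the injury libraries. The part of these cells in the levels of the 10 genes was not tested.

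**Figure D5:**
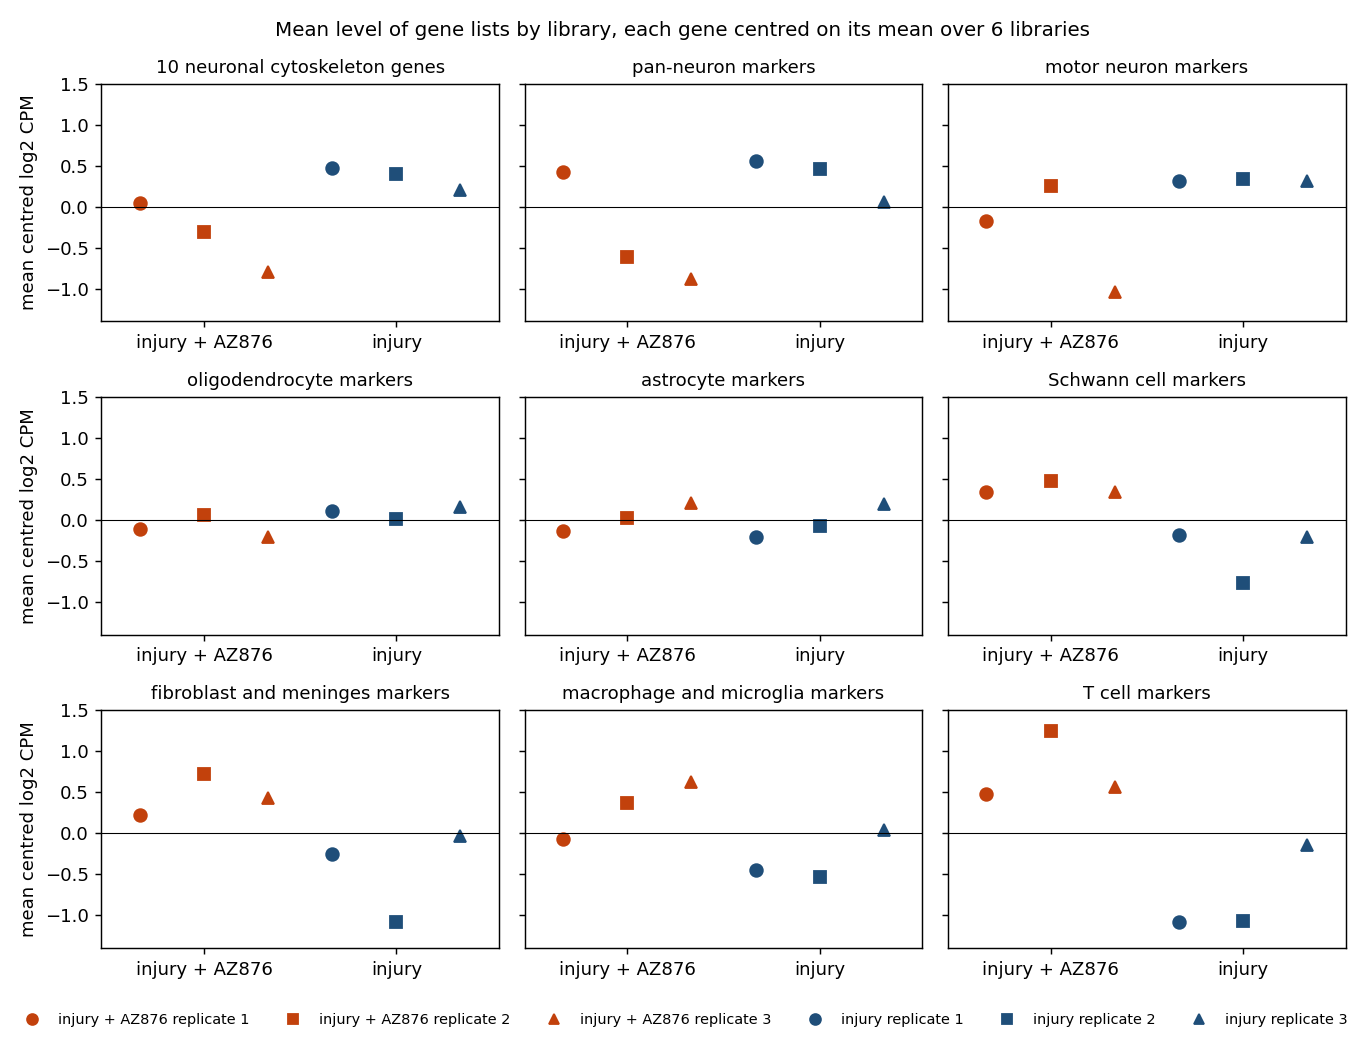
Mean log2 CPM of the 10 genes and of 8 marker lists in each library, every gene centred on its mean over the 6 libraries, with injury + AZ876 (orange) left of injury (blue). The 10 genes average 0.04, -0.31 and -0.79 in injury + AZ876 replicates 1, 2 and 3 and 0.47, 0.40 and 0.20 in injury replicates 1, 2 and 3, while the Schwann cell, fibroblast and T cell lists are higher in every injury + AZ876 library than in any injury library.

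Likeness to the neurofilament genes was measured as the root mean square difference, over the 6 libraries, between a gene's centred log2 CPM and the mean of Nefl, Nefm and Nefh. Among the other 7 genes it was 0.16 for Tubb3, 0.22 for Uchl1, 0.27 for Map1b, 0.30 for Map2, 0.33 for Ina, 0.39 for Dpysl2 and 0.42 for Mapt, beside a median of 0.60 over 10976 protein-coding genes with a mean of at least 10 CPM. The closest genes outside the 10 were Sh3bgr at 0.09, Nrg1 at 0.10, Syt3 and Nell1 at 0.12, Rell2 and Ccdc92 at 0.13, and Rimkla and Igsf21 at 0.14. Nrg1 encodes neuregulin 1, the axonal growth factor that Schwann cells read, and had 12.9, 12.3 and 5.48 CPM in injury + AZ876 replicates 1, 2 and 3, against 17.9, 20.2 and 16.8 CPM in injury replicates 1, 2 and 3. Rimkla, an enzyme gene of the neuropeptide NAAG, had 33.2, 26.1 and 17.6 CPM in injury + AZ876 replicates 1, 2 and 3, against 46.7, 41.1 and 41.2 CPM in injury replicates 1, 2 and 3. Both were picked for this likeness, so their pattern is no further result.

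The genes closest to Dpysl2 were Rnf187 at 0.02, Reep1, which shapes the endoplasmic reticulum in axons, at 0.03, and Cstpp1 at 0.03. Reep1 had 101, 85.8 and 79.0 CPM in injury + AZ876 replicates 1, 2 and 3, against 116, 110.3 and 98.7 CPM in injury replicates 1, 2 and 3, and its groups overlapped as those of Dpysl2 did. Of the 10 genes, Mapt was the closest to Dpysl2, at 0.14, and Nefm the farthest, at 0.45. Small differences such as that of Dpysl2 have many genes near them, and the median distance to Dpysl2 over the same 10976 genes was 0.27.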

How the data were processed

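The members and gene lists were chosen with earlier results of these data known. The deposited table holds raw read counts per gene, whole numbers that the authors had not normalised, with 1 column per sample. Tools named in the submitters' processing notes are HISAT2 2.1.0 and fastp 0.23.0. Not given in the sources used here are the build, the annotation, the program that counted reads and whether it used strand. Per the labels' protocols, total RNA was isolated with magnetic beads and libraries were made with an MGI DNBSEQ kit. Columns were assigned by library name and samples to groups by title.

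One row was kept for each of 148 symbols with identical repeated rows, which left 56859 genes. Of 51970 genes matched to GENCODE M21 (GRCm38) by identifier, 2.80% had the same start, so the table's own positions are printed and only lengths and transcript sequences were taken from GENCODE. No library was a copy of another (chi-square per degree of freedom of 13.1 to 120 between pairs).

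edgeR 4.0.16 in R 4.3.3 (filterByExpr by group, TMM, robust quasi-likelihood F-test, no covariates, 4 residual degrees of freedom) tested 17599 genes, with Benjamini-Hochberg adjustment over all and a threshold of 0.05. The scripts were tested on simulated data. CPM used TMM-scaled sizes, and log2 CPM a prior count of 2. Each standard error is the absolute log2 fold change over the root of its F statistic. Ratios and single genes were compared by two-sided exact permutation over 20 label assignments. DESeq2 1.42.0 and limma-voom (limma 3.58.1), other scalings and filters, a replicate block and leaving out each library were the alternatives. All 10 members are named, with the 2 genes of smallest p from each of 9 cytoskeleton lists (mean of at least 1 CPM) and the nearest profiles, and others are said to be chosen after their values were seen. There were 11 cell type lists. One gene that this rule names is not reported here.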

Additional observations from a re-analysis of the deposited data

How the results depend on the processing

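All 10 genes had a lower level in the injury + AZ876 group under each of 14 alternatives, and 138 of 140 of these values kept their side of the threshold. The exceptions were Nefm in DESeq2, with a log2 fold change of -1.01, and Ina without injury + AZ876 replicate 1, with -1.33. The count of genes past an adjusted p of 0.05 was 0 in edgeR, against 177 in DESeq2 and 6 with no low-count filter, and it ran from 0 to 363 when 1 library was left out, with 363 without injury + AZ876 replicate 1. With the replicate number as a replicate block it was 2. Same-numbered samples correlated at 0.39, -0.14 and 0.32 in their deviations, so the numbers were not taken to pair the samples, and the block brought the adjusted p of the 10 genes to between 0.0677 and 0.243. Differences near 0 changed sign when 1 library was left out: the log2 ratio difference ran from -0.33 to 0.129 for Ina to Nefl, from -0.0743 to 0.0528 for Tubb3 to Nefl and from -0.125 to 0.0838 for Uchl1 to Nefl. The cause was not tested. Raw counts and sign flips within same-numbered replicates (replicate block) changed no direction of the 8 ratios. Levels per kilobase of the longest transcript were an alternative added after seeing the data, and moved 5 of 10 levels by more than their SD. With 3 samples a group, no two-sided exact test can reach 0.05.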

Other observations

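Astrocyte markers had 5 of 8 genes with a higher mean in the injury + AZ876 group, a median log2 fold change of 0.08, and sums of 12100 to 17880 CPM in the injury + AZ876 libraries and 12600 to 16670 CPM in the injury libraries. Oligodendrocyte precursor markers had 5 of 8 lower, with a median of -0.10 and sums of 1150 to 1378 CPM in the injury + AZ876 libraries and 1303 to 1490 CPM in the injury libraries. Endothelial markers had 6 of 7 higher, with a median of 0.38 and sums of 398 to 475 CPM in the injury + AZ876 libraries and 343 to 411 CPM in the injury libraries.

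Sensory ganglion neuron markers, which could mark dorsal root tissue taken with the cord, summed to 34.8 to 72.9 CPM in the injury + AZ876 libraries and 22.1 to 76.5 CPM in the injury libraries. Of 9 listed genes 5 were tested, 4 of them lower with a median over the 5 of -0.32, and 0 had an unadjusted p under 0.05. Prdm12 had 0 counts in all 6 libraries, and Scn10a, Scn11a and Trpv1 did not pass the low-count filter.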
